A study of Homo sapiens with 9 samples.

Results

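The histone genes measured in NCI-H716 cells comprised 81 genes read by 93 of the 47230 probes of an Illumina bead array. They were chosen by symbol alone: 70 genes whose symbol began with HIST1H to HIST4H, taken as replication-dependent histone genes and read by 75 probes, and 11 variant histone genes whose symbol began with H2AF or H3F3, read by 18 probes. Where a gene had several probes, the brightest stood for it. By protein type, the replication-dependent genes were 6 genes for the linker histone H1, 17 for H2A, 18 for H2B, 14 for H3 and 15 for H4. The variant genes were 9 for H2A variants and 2 for the H3 variant H3.3.

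Core histones H2A, H2B, H3 and H4 form the protein spool around which DNA is wrapped, and linker histone H1 binds the DNA that enters and leaves it. Replication-dependent histone genes lie in clusters, are transcribed mainly while DNA is copied in S phase under the coactivator NPAT, and yield mRNAs that mostly end in a stem-loop bound by SLBP instead of a poly(A) tail. Variant histone genes are mostly expressed throughout the cell cycle and yield polyadenylated mRNAs, and some replication-dependent genes can also yield polyadenylated forms. Labelling kits that prime cDNA synthesis with oligo(dT) favour polyadenylated RNA. How far the 3' end of each mRNA bears on the signals described here was not tested.

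NCI-H716 is an established line of human colorectal cancer cells that has enteroendocrine features, and the series is titled as an overexpression of YAP1, a transcriptional coactivator held back by Hippo signalling. Total RNA was hybridised on 9 arrays: 3 of untreated cells, 3 of cells given a control vector and 3 of cells given a vector for a YAP mutant. Which YAP mutation was used, how the vectors were delivered and how long after delivery the RNA was taken are not given in the labels. Nothing says that the arrays of a group came from separate cultures, and p-values therefore rest on array-to-array spread, which could be purely technical.

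The median raw signal of an array lay between 104.2 and 128.8, with the lowest values in control vector array 3 (104.2) and YAP mutant array 1 (104.6), and 38.8% to 41.6% of the probes on an array were above background. The number of arrays, 3 in each group, limited the precision. The hormone gene GCG and the granule protein gene CHGA, both marks of enteroendocrine cells, lay above background on 9 of 9 arrays, whereas VIL1, a brush border gene, did so on 0. The single YAP1 probe read 8.29, 8.17 and 8.01 on the log2 scale in untreated cells, 7.85, 7.79 and 7.94 with the control vector and 8.06, 7.82 and 7.91 with the YAP mutant vector. The vector arrays overlapped at that probe, and the difference between them was 0.07 ± 0.11 (SE; limma, adjusted p = 0.964). The part of the YAP1 transcript that the probe reads is not given in the sources used here, so the probe does not check the labels.

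A probe was counted as above background on an array when its raw log2 signal exceeded the array's mode by 1.645 SD, where the SD was taken from the values below that mode. A gene was tested if its probe passed on at least 3 of 9 arrays in any groups. Of the 81 histone genes, 56 were tested, 46 of them above background on all 9 arrays, and 19 lay above background on none. The tested genes were 48 of 70 replication-dependent genes (68.6%) and 8 of 11 variant genes (72.7%). The filter left 2 of 6 H1 genes, 12 of 17 H2A genes, 14 of 18 H2B genes, 10 of 14 H3 genes and 10 of 15 H4 genes.

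**Figure D1:**
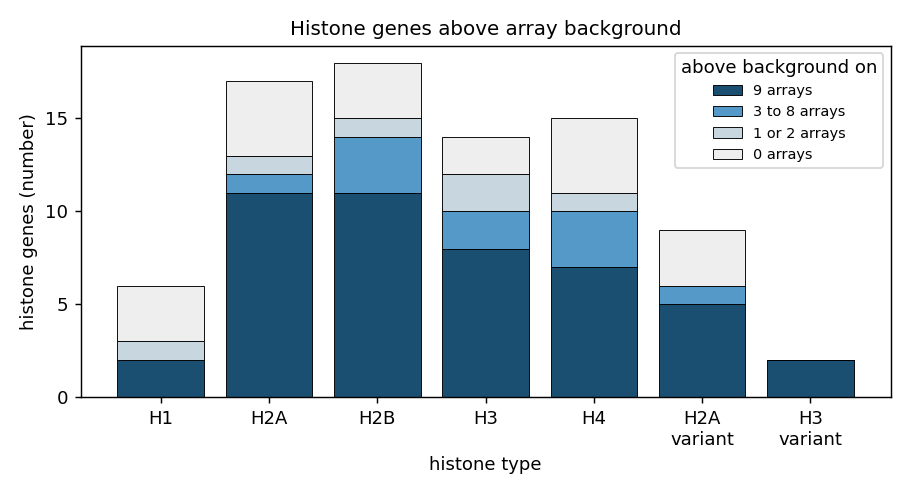
Number of histone genes of each protein type (horizontal axis) by the number of arrays on which the gene's probe lay above background. The dark segments are genes above background on 9 of 9 arrays, 11 of 17 for H2A and 11 of 18 for H2B, and the palest segments are genes above background on 0 arrays.

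The 25 genes that were not tested included those whose products are best known from the testis. HIST1H1T, a linker histone of spermatocytes, HIST1H2AA, and the short variants H2AFB1, H2AFB2 and H2AFB3 were above background on 0 arrays. HIST1H2BA, the testis H2B, was above background on 1 array and HIST3H3, the testis H3, on 2. The remaining untested genes were HIST1H1B, HIST1H1D, HIST1H1E, HIST1H2AH, HIST1H2AJ, HIST1H2AK, HIST1H2AL, HIST1H2BB, HIST1H2BI, HIST1H2BL, HIST1H3A, HIST1H3C, HIST1H3I, HIST1H4A, HIST1H4D, HIST1H4F, HIST1H4G and HIST1H4L. A further 10 tested genes lay above background on 3 to 8 arrays. Among these, HIST3H2BB and HIST1H4I were above background on 0 of 3 untreated arrays, and HIST1H3J on 0 of 3 YAP mutant arrays, so their log2 differences against those groups, drawn in the plots with the others, set signals at background level and are not read as folds. HIST3H2BB, HIST1H4I and HIST1H3J remain in the counts and medians by class and type.

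Between the YAP mutant vector and the control vector, no histone gene passed the test. In limma, which tested 15673 features and called those with a Benjamini-Hochberg adjusted p under 0.05, 0 of 48 replication-dependent genes and 0 of 8 variant genes were called, where 0.338% of all features were called (0.319% higher and 0.0191% lower). At an unadjusted p under 0.05, 2 of the 48 and 0 of the 8 were counted, where the share over all features was 6.48%. The log2 differences of the replication-dependent genes ran from -0.26 to 0.16 with a median of -0.03, and those of the variant genes from -0.18 to 0.18 with a median of 0.00. The median over all features was 0.00, with quartiles of -0.08 and 0.08.

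Of the H2B genes, 12 of 14 lay below 0 in that comparison, with a median of -0.07 on the log2 scale. The medians were 0.00 for H1, -0.01 for H2A, 0.04 for H3 and -0.06 for H4. The largest difference among the replication-dependent genes was that of HIST1H2BM (H2BC14 in current naming), an H2B gene, which read 6.78, 6.72 and 6.64 with the control vector and 6.24, 6.68 and 6.43 with the YAP mutant vector. The groups overlapped, the probe was above background on only 1 of the 3 YAP mutant arrays, and the difference was -0.26 ± 0.11 (SE; limma, adjusted p = 0.691). HIST2H2BE (H2BC21), an H2B gene of the smaller cluster on chromosome 1, read 10.00, 9.83 and 9.98 with the control vector and 9.56, 9.86 and 9.65 with the YAP mutant vector. Its YAP mutant array 2 lay among the control vector arrays, and the difference was -0.24 ± 0.11 (limma, adjusted p = 0.703).

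Groups without overlap between the vectors were found for 1 replication-dependent gene in the lower direction and 1 in the higher direction, where 5.64% and 5.84% of all features did so. The lower gene was HIST1H3H, an H3 gene, at -0.16 (limma, adjusted p = 0.864). The higher gene was HIST1H2BJ, an H2B gene described further here, at 0.13 ± 0.10 (limma, adjusted p = 0.909). Both values were chosen for mention after they were seen.

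Against untreated cells, the YAP mutant vector arrays showed lower signals of 4 replication-dependent genes: the H2B genes HIST1H2BG, HIST1H2BC and HIST1H2BJ, which encode a core histone, and HIST1H1C, which encodes the linker histone H1.2. They fell by 0.38 to 0.62 on the log2 scale, and 0 of 48 genes were called higher. Over all 15673 features 5.14% were called in this comparison, 1.79% lower and 3.35% higher. With the control vector, 1 of 48 replication-dependent genes was called lower against untreated cells, HIST1H2BJ, and 0 were called higher, where 2.17% of all features were called, 0.657% lower and 1.51% higher. Both comparisons share the untreated arrays, so their values are given side by side and are not independent of each other.

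HIST1H2BG (H2BC8, probe ILMN_1716195) read 8.67, 8.93 and 8.60 on the log2 scale in untreated cells, 8.42, 8.40 and 8.15 with the control vector and 8.11, 8.18 and 8.05 with the YAP mutant vector. All 6 vector arrays lay below the 3 untreated arrays, and the vector groups overlapped, with control vector array 3 among the YAP mutant arrays. Against untreated cells it fell by 0.62 ± 0.11 with the YAP mutant vector (SE; limma, adjusted p = 0.00101), which is 1.54-fold lower. The control vector gave a difference of -0.41 ± 0.11 (limma, adjusted p = 0.0514), which did not pass. Between the vectors it was -0.21 ± 0.11 (limma, adjusted p = 0.812).

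HIST1H2BC (H2BC4, probe ILMN_1680937) read 8.35, 8.51 and 8.62 in untreated cells, 8.15, 8.12 and 8.06 with the control vector and 8.12, 7.79 and 8.06 with the YAP mutant vector. All vector arrays again lay below the untreated ones, and the vector groups overlapped. It fell by 0.50 ± 0.11 with the YAP mutant vector (limma, adjusted p = 0.00654, 1.42-fold lower). Its difference with the control vector was -0.38 ± 0.11 (limma, adjusted p = 0.0714), and between the vectors it was -0.12 (limma, adjusted p = 0.928).

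HIST1H2BJ (H2BC11, probe ILMN_1658702) read 8.94, 9.21 and 9.02 in untreated cells, 8.63, 8.42 and 8.58 with the control vector and 8.74, 8.66 and 8.64 with the YAP mutant vector. The 3 groups did not overlap, with the control vector arrays the lowest. This was the single histone gene called with both vectors: it fell by 0.38 ± 0.10 with the YAP mutant vector (limma, adjusted p = 0.0332, 1.3-fold lower) and by 0.51 ± 0.10 with the control vector (limma, adjusted p = 0.00763, 1.43-fold lower).

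HIST1H1C (H1-2, probe ILMN_1757406) read 12.19, 12.21 and 12.19 in untreated cells, 11.97, 11.48 and 12 with the control vector and 11.67, 11.79 and 11.87 with the YAP mutant vector. The untreated arrays lay close together and above all vector arrays, and control vector array 2 was the lowest of the 9. It fell by 0.42 ± 0.12 with the YAP mutant vector (limma, adjusted p = 0.0433, 1.34-fold lower). The control vector gave a difference of -0.38 ± 0.12 (limma, adjusted p = 0.11), and between the vectors it was -0.04 ± 0.12 (limma, adjusted p = 0.983).

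**Figure D2:**
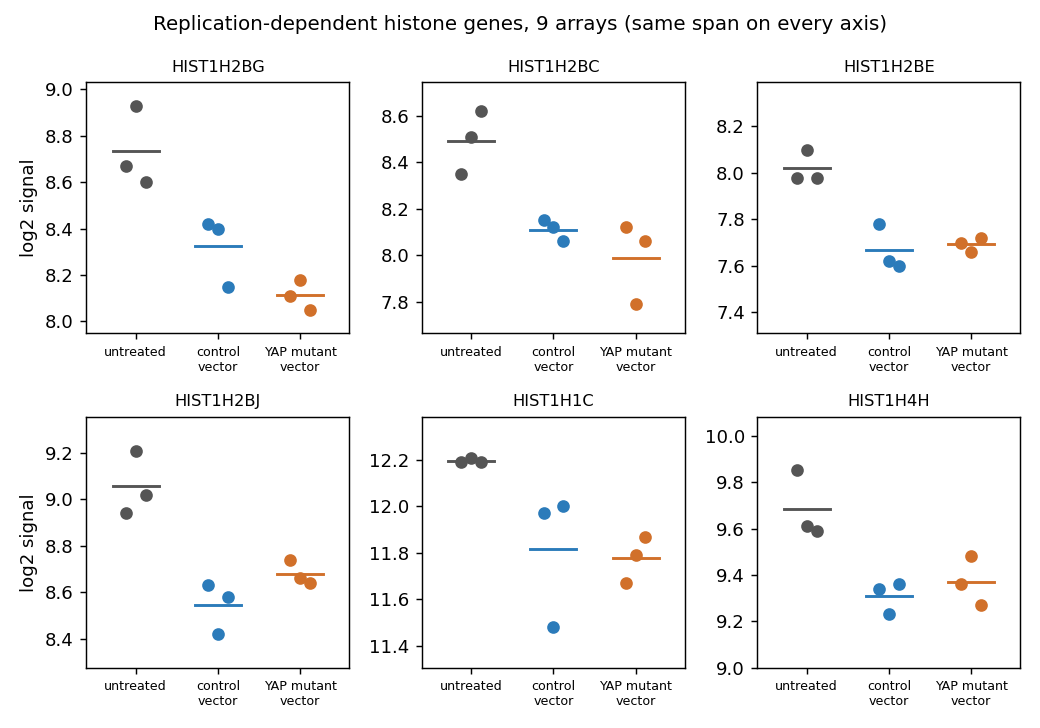
Log2 signal (vertical axis, same span in every panel) of 6 replication-dependent histone genes on each array; points are arrays and bars are group means. HIST1H2BG, HIST1H2BC, HIST1H2BJ and HIST1H1C were called against untreated cells, HIST1H2BE and HIST1H4H were not, and in each panel the 3 untreated arrays lie above the 6 vector arrays.

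The calls depended on the arrays used. HIST1H2BG and HIST1H2BC were called against untreated cells, with the YAP mutant vector, when any 1 array was left out. The call of HIST1H1C was lost without any 1 of the untreated or YAP mutant arrays, with adjusted p in limma between 0.0661 without YAP mutant array 3 and 0.156 without YAP mutant array 1. The call of HIST1H2BJ with the YAP mutant vector was lost without untreated array 2 (0.173) or 3 (0.0735), or without YAP mutant array 1 (0.0599), 2 (0.0802) or 3 (0.109). With the control vector it was lost without untreated array 2 (adjusted p = 0.0626) or control vector array 2 (0.0507).

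HIST1H2BE (H2BC6), an H2B gene, and HIST1H4H (H4C8), an H4 gene, were next to the threshold, chosen for mention after their values were seen. HIST1H2BE read 7.98, 8.10 and 7.98 in untreated cells, 7.78, 7.62 and 7.60 with the control vector and 7.70, 7.66 and 7.72 with the YAP mutant vector, so that all vector arrays lay below the untreated ones. Its difference was -0.33 ± 0.10 with the YAP mutant vector (limma, adjusted p = 0.0552) and -0.36 ± 0.10 with the control vector (limma, adjusted p = 0.0594). HIST1H4H read 9.85, 9.61 and 9.59 in untreated cells, 9.34, 9.23 and 9.36 with the control vector and 9.36, 9.48 and 9.27 with the YAP mutant vector. Its differences were -0.31 ± 0.10 (limma, adjusted p = 0.0903) and -0.37 ± 0.10 (limma, adjusted p = 0.0689).

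HIST1H2BC, HIST1H2BE, HIST1H2BF, HIST1H2BG and HIST1H2BI encode the same H2B protein, and coding sequences of histone paralogs are closely alike. The probe sequences were not used here, so each probe may read RNA of related genes, and the assignment of a signal to a single gene is uncertain. HIST1H2BI was not tested. HIST1H2BF read between 6.70 and 6.93 in untreated cells, and its groups overlapped, with differences of -0.17 with the YAP mutant vector (limma, adjusted p = 0.41) and -0.08 with the control vector (limma, adjusted p = 0.794). The same uncertainty holds for HIST2H2AA3 and HIST2H2AA4, for the H3 genes of the chromosome 1 cluster, and for the H4 genes.

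Across the replication-dependent genes, 36 of 48 (75%) lay below 0 with the YAP mutant vector against untreated cells, where 51.6% of all features did. Their log2 differences ran from -0.62 to 0.18, and their median was -0.12, beside -0.01 over all features, whose quartiles were -0.11 and 0.11. In 11 of the 48 every YAP mutant array lay below every untreated array and in 1 above, where 11.3% and 11.9% of all features did so. With the control vector 33 of 48 (68.8%) lay below 0, beside 50.9% of all features, and the median was -0.08, with a range from -0.51 to 0.22. The control vector groups lay wholly below the untreated arrays for 11 genes and wholly above for 4, where the shares over all features were 8.89% and 9.76%. The 4 include HIST1H4I, which passed the filter only through the vector arrays, with 0 of 3 untreated arrays above background. On the lower side, the 11 with the control vector include HIST2H3A. HIST2H3A and HIST1H2AB, both counted below 0 with each vector, were above background on 3 untreated arrays but on 1 array of each vector. They passed the filter only through the untreated arrays.

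By protein type, the H2B genes had the lowest of the 4 core histone medians in the comparison of YAP mutant vector and untreated cells, at -0.18. Of these 14 genes 3 were called, all lower, 11 lay below 0 and 5 lay wholly below the untreated arrays. Over all features 1.79% were called lower and 5.14% in either direction, 51.6% lay below 0 and 11.3% lay wholly below. The median array deviation of the tested H2B genes from their mean over 9 arrays was 0.13, 0.14 and 0.07 in untreated cells, -0.01, -0.01 and 0.01 with the control vector, and -0.12, -0.01 and -0.09 with the YAP mutant vector. All 3 untreated arrays were above the 6 vector arrays on this measure. The same held for the tested H1, H2A and H3 genes, but not for the H4 genes. For H1 only 2 genes were tested, and HIST1H1A differed from untreated cells by 0.10 with the YAP mutant vector and 0.06 with the control vector. The H1 order thus came from HIST1H1C alone. For H2A the untreated values ran from 0.02 to 0.11 and the vector values from -0.11 to 0.01, so the groups were barely apart. For H3 the untreated values ran from 0.07 to 0.08 and the vector values from -0.15 to 0.03. For H4 the untreated values ran from -0.03 to 0.02 and the vector values from -0.20 to 0.05. The H3 genes had a median of -0.12 with 9 of 10 below 0, H2A genes -0.09 with 8 of 12 below 0, and H4 genes -0.07 with 7 of 10 below 0, with 0 called in each of these types. Medians with the control vector were -0.06 for H2B, -0.13 for H3, -0.08 for H2A and -0.03 for H4. Whether the types differed from each other was not tested.

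**Figure D3:**
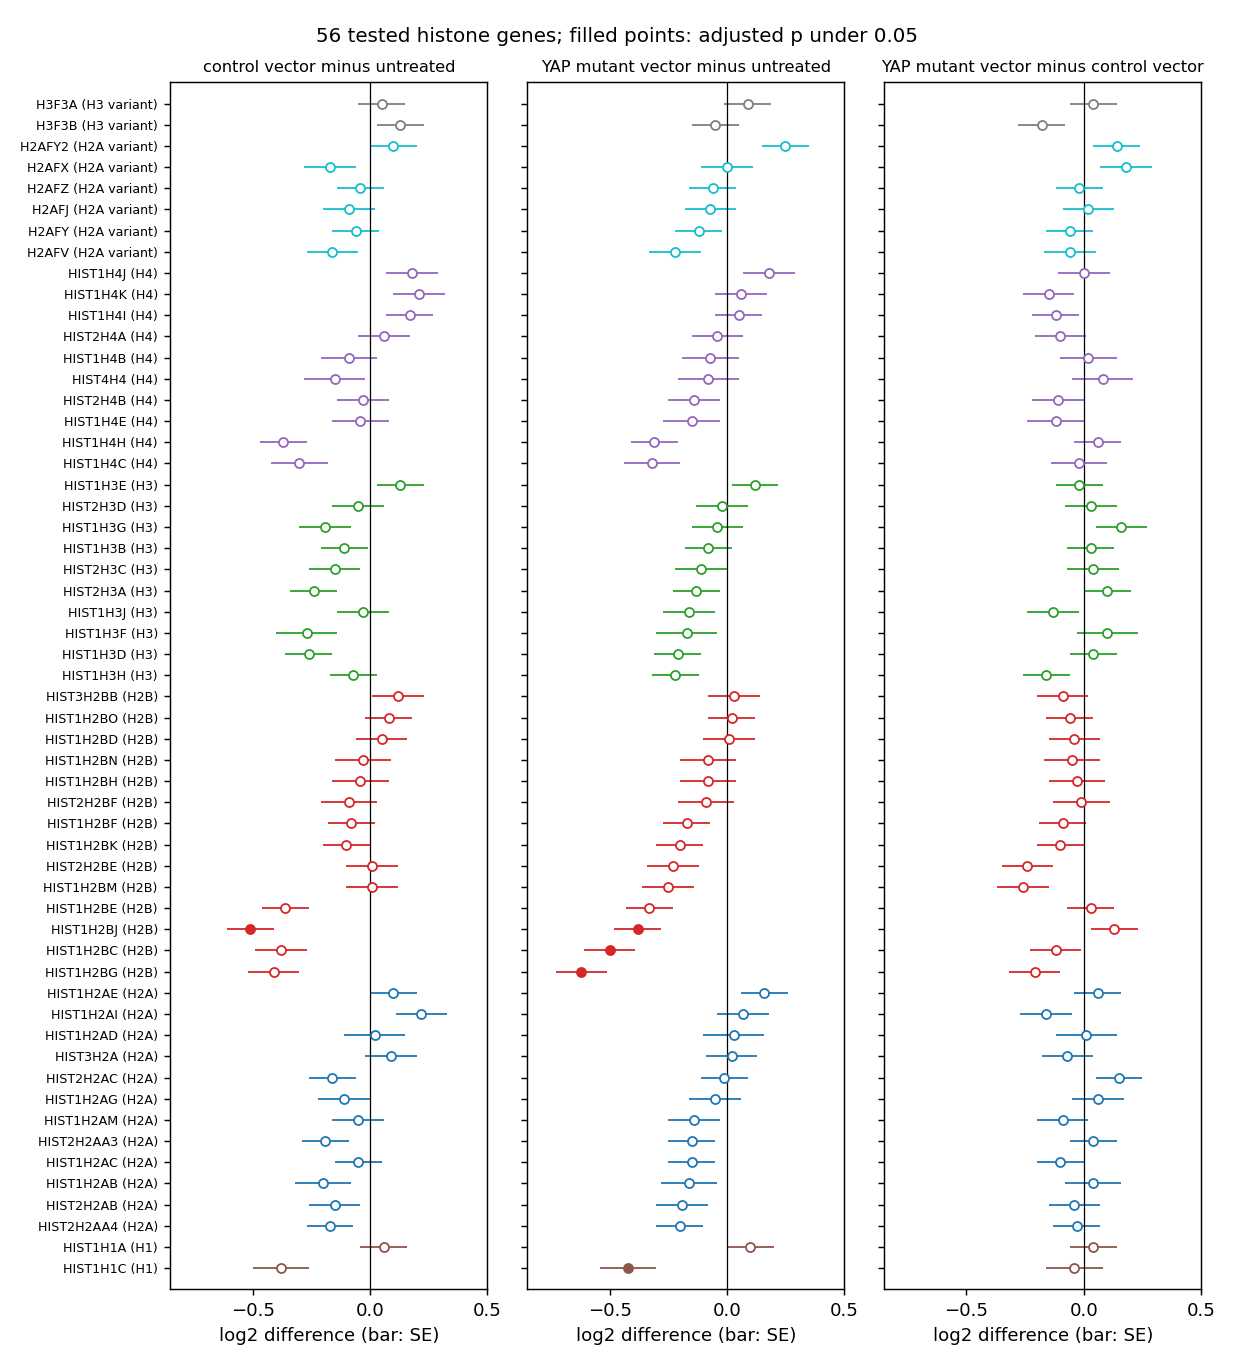
Log2 difference of each of the 56 tested histone genes in the 3 comparisons (horizontal axis; bars are SE from the limma model), grouped by protein type. Filled points passed an adjusted p under 0.05; from left to right, 1, 4 and 0 genes did so.

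Most H2B genes did not pass. HIST1H2BK (H2BC12) read 13.92, 14.07 and 14.04 in untreated cells, 14.01, 13.85 and 13.88 with the control vector and 13.89, 13.71 and 13.83 with the YAP mutant vector. The YAP mutant arrays lay just below the untreated ones, with a difference of -0.20 (limma, adjusted p = 0.304). HIST1H2BD (H2BC5), another H2B gene, differed by 0.01 with the YAP mutant vector and 0.05 with the control vector, and its groups overlapped.

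Among the other core histones, HIST1H4C (H4C3), an H4 gene, read 13.76, 13.72 and 13.43 in untreated cells, 13.52, 13.31 and 13.20 with the control vector and 13.22, 13.52 and 13.22 with the YAP mutant vector. Untreated array 3 lay among the vector arrays, and the differences were -0.32 (limma, adjusted p = 0.13) and -0.30 (limma, adjusted p = 0.242). HIST2H2AA3 (H2AC18), an H2A gene, read 11.06 on all 3 untreated arrays, 10.96, 10.88 and 10.77 with the control vector and 10.87, 10.98 and 10.87 with the YAP mutant vector. All vector arrays lay below, at -0.15 (limma, adjusted p = 0.44) with the YAP mutant vector and -0.19 (limma, adjusted p = 0.411) with the control vector. At the other end, the highest value with the YAP mutant vector was 0.18, at the H4 gene HIST1H4J (limma, adjusted p = 0.377). The highest with the control vector was 0.22, at the H2A gene HIST1H2AI (limma, adjusted p = 0.359).

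The promoters of the called genes are shown because histone genes of a type share promoter elements that can be read from their letters. The sequences are the 250 bases before the annotated start in RefSeq (GRCh38.p14), all on the minus strand and written 5′ to 3′. They lie at chr6:26216689-26216938 (HIST1H2BG), chr6:26123927-26124176 (HIST1H2BC), chr6:27132796-27133045 (HIST1H2BJ), chr6:27146859-27147108 (HIST1H2BK), chr6:26056471-26056720 (HIST1H1C) and chr4:99950276-99950525 (H2AFZ). HIST1H2BK is shown as an H2B gene that was not called, and H2AFZ as a variant gene. Capitals mark the octamer element of H2B promoters, ATTTGCAT. They also mark the TATA box, searched with the letters TATAAA, and the binding element of the factor NF-Y, searched as CCAAT. Both strands were searched, so that the reverse complement of each also counts, and adjoining TATA matches on both strands overlap.
HIST1H2BG: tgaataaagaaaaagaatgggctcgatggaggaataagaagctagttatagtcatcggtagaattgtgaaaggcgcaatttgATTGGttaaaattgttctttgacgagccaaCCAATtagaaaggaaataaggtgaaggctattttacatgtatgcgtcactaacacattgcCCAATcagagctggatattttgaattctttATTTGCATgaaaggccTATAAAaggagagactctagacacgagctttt
HIST1H2BC: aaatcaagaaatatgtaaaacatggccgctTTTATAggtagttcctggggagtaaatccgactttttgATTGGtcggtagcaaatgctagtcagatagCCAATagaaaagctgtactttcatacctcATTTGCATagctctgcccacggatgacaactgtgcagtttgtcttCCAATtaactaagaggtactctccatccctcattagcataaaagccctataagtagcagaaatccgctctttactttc
HIST1H2BJ: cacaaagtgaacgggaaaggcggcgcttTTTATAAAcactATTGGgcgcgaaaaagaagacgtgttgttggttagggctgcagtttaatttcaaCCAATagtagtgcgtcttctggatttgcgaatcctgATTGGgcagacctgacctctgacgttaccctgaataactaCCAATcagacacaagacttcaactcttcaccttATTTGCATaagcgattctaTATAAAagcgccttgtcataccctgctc
HIST1H2BK: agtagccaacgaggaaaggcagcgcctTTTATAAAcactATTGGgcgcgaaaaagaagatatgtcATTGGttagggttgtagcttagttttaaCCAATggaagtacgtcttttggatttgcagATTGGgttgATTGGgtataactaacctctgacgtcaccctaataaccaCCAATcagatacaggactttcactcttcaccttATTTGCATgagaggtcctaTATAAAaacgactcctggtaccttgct
HIST1H1C: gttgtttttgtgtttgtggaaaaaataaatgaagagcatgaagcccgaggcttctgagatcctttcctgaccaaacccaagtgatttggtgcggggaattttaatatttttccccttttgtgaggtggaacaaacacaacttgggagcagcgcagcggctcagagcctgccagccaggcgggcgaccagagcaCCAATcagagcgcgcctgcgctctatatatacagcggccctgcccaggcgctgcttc
H2AFZ: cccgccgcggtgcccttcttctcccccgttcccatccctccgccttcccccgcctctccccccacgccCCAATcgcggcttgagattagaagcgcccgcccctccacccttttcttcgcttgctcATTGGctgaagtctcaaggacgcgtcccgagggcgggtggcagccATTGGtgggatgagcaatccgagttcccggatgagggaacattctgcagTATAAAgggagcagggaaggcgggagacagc

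The octamer element lay 48 bases upstream of the start in HIST1H2BG, 47 in HIST1H2BJ and 46 in HIST1H2BK, but 123 in HIST1H2BC. A TATA match lay 32 bases upstream in HIST1H2BG, 28 in HIST1H2BJ and 27 in HIST1H2BK. HIST1H2BC had its TATA match 220 bases upstream on the other strand, at the side of its H2A neighbour. HIST1H1C held a CCAAT match 57 bases upstream and no match to the letters ATTTGCAT or TATAAA. Only these exact letters were searched. TATA-like letters near the start, such as tatatata in HIST1H1C and ctataag in HIST1H2BC, were therefore not counted, and a missing match does not show a missing TATA box. The uncalled HIST1H2BK and the called HIST1H2BJ thus had the octamer and the nearer TATA match within 1 base of each other's distance, while CCAAT matches numbered 6 in HIST1H2BK and 4 in HIST1H2BJ.

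RefSeq promoters were matched for 76 of 81 histone genes, all but HIST1H2AH, HIST1H3I, HIST1H3J, HIST1H4A and HIST1H4C. The octamer element was found in 14 of 18 H2B promoters (77.8%), in 11 of 16 H2A promoters (68.8%), in 1 of 12 H3 promoters, in 0 of 13 H4 promoters, in 0 of 6 H1 promoters and in 1 of 11 variant promoters, beside 1.66% of 27305 promoters of the same length. Windows of neighbouring H2A and H2B genes overlap, so the same element can be counted for both. The CCAAT box was found in every matched H1, H2A, H2B and H3 promoter but in 3 of 13 H4 promoters (23.1%), beside 33% of all promoters. TATAAA was found in 43 of 65 replication-dependent promoters (66.2%) and 3 of 11 variant promoters (27.3%), beside 11.1% of all. The core letters bound by TEAD factors, the DNA-binding partners of YAP (GGAATG or CATTCC), were found in 4 of 65 replication-dependent promoters (6.15%), in 1 of 11 variant promoters (9.09%) and in 0 of the 4 promoters of called genes, beside 11.9% of all. A match, or its lack, describes letters in this window only.

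Many H2A and H2B genes lie head to head, and 11 such pairs had start sites within 1000 bases, with both genes tested in 7. The called H2B genes were each in such a pair, and the H2A partner was called in none of them. HIST1H2BG at -0.62 with the YAP mutant vector against untreated cells lay 233 bases from HIST1H2AE, which differed by 0.16. HIST1H2BC at -0.50 lay 246 bases from HIST1H2AC at -0.15. HIST1H2BJ at -0.38 lay 248 bases from HIST1H2AG at -0.05. With the control vector these H2A genes differed by 0.10, -0.05 and -0.11. The pair of HIST3H2BB is left out here, as its probe was not above background in untreated cells. In the other pairs the differences with the YAP mutant vector against untreated cells ran between -0.23 and 0.02 on the H2B side. On the H2A side they ran between -0.14 and 0.03. The difference between partners was not tested.

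**Figure D4:**
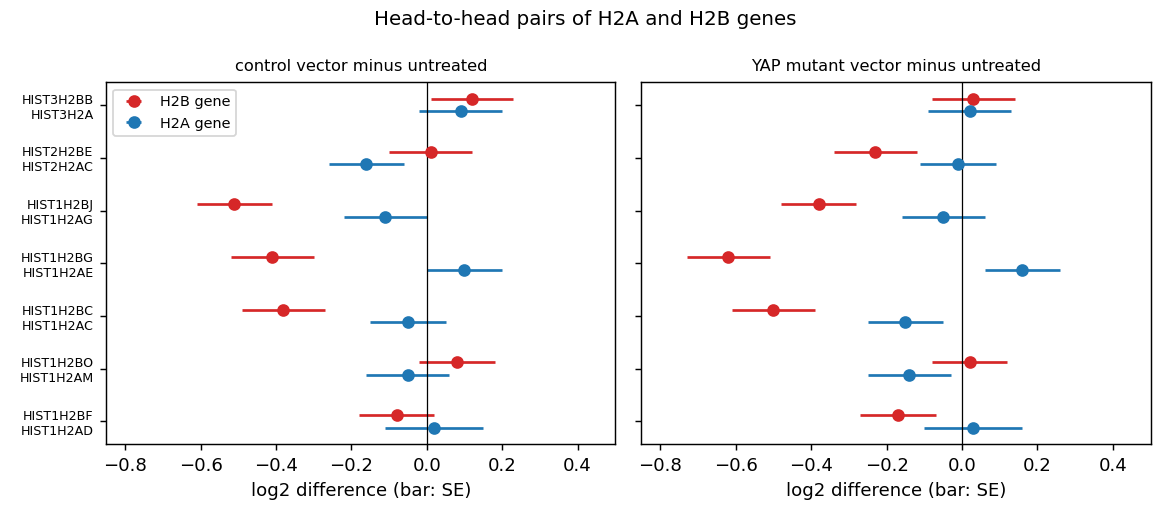
Log2 difference from untreated cells (horizontal axis; bars are SE from the limma model) of the H2B and the H2A gene of the 7 head-to-head pairs with both genes tested. HIST1H2BG, HIST1H2BC and HIST1H2BJ lie at -0.62, -0.50 and -0.38 with the YAP mutant vector, and their H2A partners at 0.16, -0.15 and -0.05.

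No variant histone gene was called in any of the 3 comparisons in limma, where 0.338% to 5.14% of all features were called. Beside the 0 called of 8, an unadjusted p under 0.05 was reached by 2 in the comparison of YAP mutant vector and untreated cells, by 0 in that of control vector and untreated cells, and by 0 between the vectors, where 18.3%, 13.9% and 6.48% of all features reached it. The medians of the 8 genes were -0.06, -0.05 and 0.00 on the log2 scale. With arrays scaled to a common median in place of quantile normalization, the first and second became -0.19 and -0.15, beside -0.078 and -0.054 over all features.

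H3F3A and H3F3B both encode H3.3, the H3 variant placed in chromatin outside DNA replication. H3F3A (H3-3A) read 14.02, 14.15 and 14.13 in untreated cells, 14.12, 14.16 and 14.16 with the control vector and 14.17, 14.12 and 14.29 with the YAP mutant vector. The groups overlapped throughout, and the differences from untreated cells were 0.09 (limma, adjusted p = 0.691) with the YAP mutant vector and 0.05 (limma, adjusted p = 0.899) with the control vector. H3F3B (H3-3B) read 9.84, 9.79 and 9.78, then 9.87, 9.89 and 10.03 with the control vector and 9.73, 9.67 and 9.85 with the YAP mutant vector. The control vector arrays were the highest, and the difference between the vectors was -0.18 ± 0.10 (limma, adjusted p = 0.815).

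H2AFZ and H2AFV encode the H2A.Z proteins found at promoters. H2AFZ (H2AZ1) read 13.80, 13.73 and 13.90 in untreated cells, 13.82, 13.73 and 13.77 with the control vector and 13.85, 13.73 and 13.67 with the YAP mutant vector. The groups overlapped, and no difference was beyond -0.06. H2AFV (H2AZ2) read 7.89, 7.98 and 8.12, then 7.77, 7.95 and 7.77 with the control vector and 7.66, 7.91 and 7.74 with the YAP mutant vector. Its groups overlapped, and the difference of the YAP mutant vector from untreated cells was -0.22 ± 0.11 (limma, adjusted p = 0.258).

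H2AFX encodes H2A.X, which is phosphorylated at DNA breaks and whose gene can yield both stem-loop and polyadenylated mRNA. H2AFX (H2AX) read 8.35, 8.34 and 8.36 in untreated cells, 8.16, 8.39 and 7.98 with the control vector and 8.52, 8.36 and 8.17 with the YAP mutant vector. The vector arrays spread around the tight untreated ones, and the difference between the vectors was 0.18 ± 0.11 (limma, adjusted p = 0.875). H2AFJ (H2AJ), an H2A gene outside the large clusters, read 11.47, 11.49 and 11.47, then 11.35, 11.60 and 11.20 with the control vector and 11.27, 11.54 and 11.41 with the YAP mutant vector. Its groups overlapped, with differences from untreated cells of -0.07 (limma, adjusted p = 0.807) and -0.09 (limma, adjusted p = 0.789).

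H2AFY and H2AFY2 encode macroH2A proteins, which carry an added macro domain and are found in silent chromatin. H2AFY (MACROH2A1) read 13.24, 13.24 and 13.28 in untreated cells, 13.32, 13.18 and 13.08 with the control vector and 13.13, 13.13 and 13.14 with the YAP mutant vector. The YAP mutant arrays lay below the untreated ones at the brightest probe, by -0.12 ± 0.10 (limma, adjusted p = 0.549). At probes ILMN_1674034 and ILMN_1746171 of the same gene the difference was 0.24 and 0.06, so the probes of H2AFY disagreed in sign, and the remaining probe, ILMN_2275437, was above background on 0 arrays. H2AFY2 (MACROH2A2) read 6.39, 6.33 and 6.59, then 6.46, 6.64 and 6.51 with the control vector and 6.70, 6.61 and 6.73 with the YAP mutant vector. The YAP mutant arrays lay above the untreated ones, by 0.25 ± 0.10 (limma, adjusted p = 0.191), but the probe was above background on 1, 2 and 3 arrays of the 3 groups in that order.

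**Figure D5:**
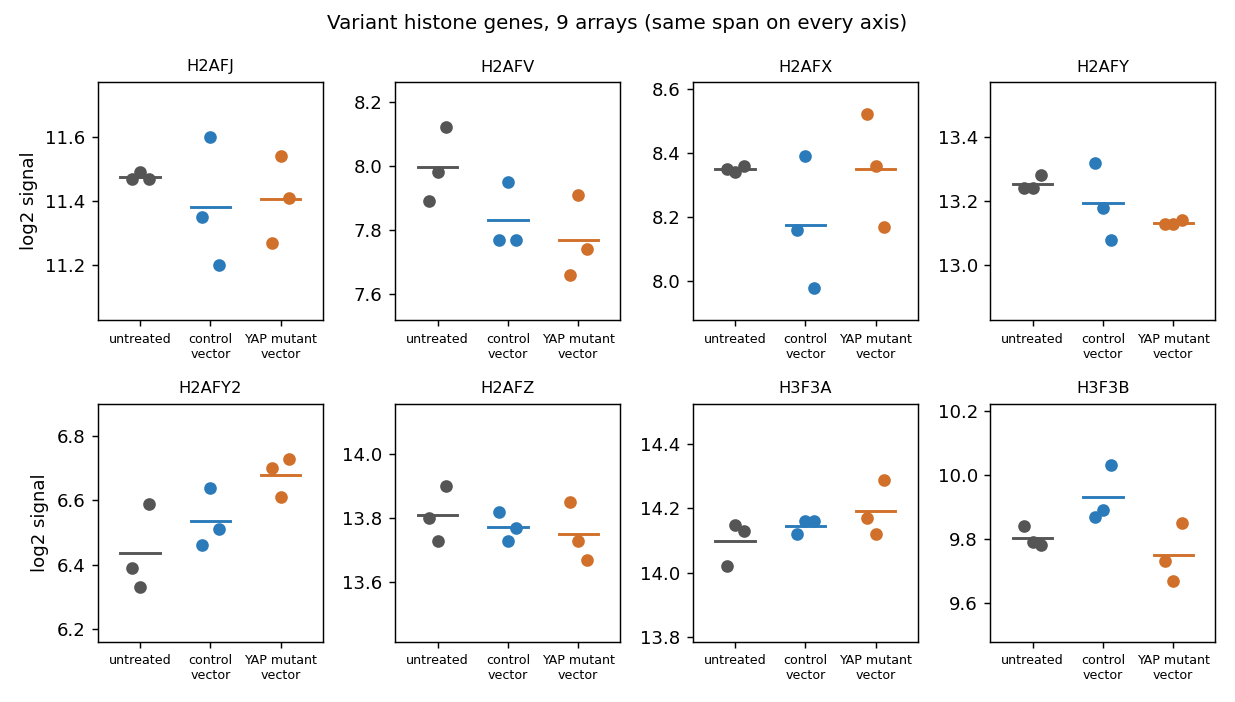
Log2 signal (vertical axis, same span in every panel) of the 8 tested variant histone genes on each array; points are arrays and bars are group means. H2AFY2 reads between 6.33 and 6.59 in untreated cells and between 6.61 and 6.73 with the YAP mutant vector, and 0 of the 8 genes were called in any comparison.

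Other genes with more than 1 probe could be read for agreement. The further probes of H3F3A differed by 0.12 and 0.01 with the YAP mutant vector against untreated cells, beside 0.09 at the brightest. The second probe of H2AFJ differed by -0.22, beside -0.07, and that of HIST1H2BK by -0.31, beside -0.20. The second probe of HIST2H2AA3 differed by -0.03, beside -0.15 at the brightest, while both gave -0.19 with the control vector. Between the vectors its second probe gave 0.16, beside 0.04 at the brightest. The 4 called genes each had 1 probe, so no such comparison was possible for them.

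The genes that make and process histone mRNA gave no call. Of 20 listed genes for histone mRNA transcription and 3' end processing 19 were tested, with 0 called in any comparison. Over all features 5.14% and 2.17% were called with the YAP mutant vector and the control vector against untreated cells, and 0.338% between the vectors. The median differences of the listed genes from untreated cells were -0.11 with the YAP mutant vector and 0.02 with the control vector, and -0.05 between the vectors. NPAT, the S-phase coactivator of histone genes, read 6.64, 6.77 and 6.90 in untreated cells, 6.89, 6.89 and 6.78 with the control vector and 6.44, 6.77 and 6.69 with the YAP mutant vector. Its groups overlapped, and the difference between the vectors was -0.22 ± 0.11 (limma, adjusted p = 0.781). SLBP, the stem-loop binding protein gene, differed by -0.04 with the YAP mutant vector and -0.07 with the control vector against untreated cells. Of 27 histone chaperone and import genes 25 were tested, with 0 called and medians of -0.07, -0.08 and 0.00 in the same order.

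The S phase genes, 26 of 26 tested, had medians of -0.13 with the YAP mutant vector and -0.14 with the control vector against untreated cells, with 20 and 22 of 26 below 0, where 51.6% and 50.9% of all features were. With the YAP mutant vector 2 were called lower and 1 higher, where 5.14% of all features were called, and with the control vector 0 were called, where 2.17% of all features were. CCNE1, cyclin E1, read 7.77, 8.14 and 7.92 in untreated cells and 7.58, 7.39 and 7.30 with the YAP mutant vector, and fell by 0.52 ± 0.13 (limma, adjusted p = 0.0152). RRM2, a ribonucleotide reductase subunit, fell by 0.43 ± 0.13 (limma, adjusted p = 0.0455). TK1, thymidine kinase, rose by 0.38 ± 0.11 (limma, adjusted p = 0.0376). With the control vector CCNE1, RRM2 and TK1 differed from untreated cells by -0.13, -0.40 and 0.07 (limma, adjusted p = 0.74, 0.109 and 0.833). The summed log2 signal of the S phase list ran from 254.3 to 256.4 in untreated cells, 251.8 to 252.8 with the control vector and 250.2 to 253.7 with the YAP mutant vector. The untreated arrays were thus the highest, as they were in median deviation for the H1, H2A, H2B and H3 genes. This order was not particular to the S phase list. The untreated sums were also the highest for the 8 markers of the line (82.8 to 83.1, against 81.7 to 82.7 and 82 to 82.4). For the histone mRNA list they lay above the YAP mutant sums (178.4 to 179.9 against 176.6 to 178.2) but overlapped the control vector sums (177.8 to 179.5). The part of the S phase genes in the histone differences was not tested. In RNA of whole cultures, fewer cells in S phase and less histone RNA per cell cannot be told apart.

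Histone genes with other symbols gave 0 calls among 3 tested of 5, where 0.338% to 5.14% of all features were called across the 3 comparisons. H1FX (H1-10), a linker histone, differed from untreated cells by 0.22 with the YAP mutant vector (limma, adjusted p = 0.356). CENPA, the centromeric H3, differed by 0.11 (limma, adjusted p = 0.648). H1FNT (H1-7), another linker histone, differed by 0.21 (limma, adjusted p = 0.322), with its probe above background on only 3 arrays. Of the tested linker histone genes HIST1H1A, HIST1H1C, H1FX and H1FNT, only HIST1H1C was called in any comparison.

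Markers of other cell types were read beside the comparisons with untreated cells. Of 5 fibroblast markers 4 were tested and DCN was above background on 0 arrays. Their summed log2 signal ran from 39.7 to 40.1 in untreated cells, 40.3 to 40.7 with the control vector and 40.1 to 41.1 with the YAP mutant vector, and LUM rose by 0.51 with the YAP mutant vector (limma, adjusted p = 0.0159). With the control vector LUM differed by 0.41 (limma, adjusted p = 0.0929), and between the vectors by 0.10. The other tested fibroblast markers, COL1A1, COL1A2 and COL3A1, were not called in any comparison. They differed from untreated cells by -0.09, 0.12 and 0.15 with the YAP mutant vector and by 0.07, -0.11 and 0.05 with the control vector. LUM and COL3A1 were above background on 9 arrays, untreated ones included. Of 3 blood markers HBB was tested, and PTPRC and CD3E were above background on 0 arrays. The summed log2 signals of the blood list were 19.5 to 19.6, 19.9 to 20.2 and 19.2 to 20.1 in the same order, and HBB rose by 0.45 with the control vector (limma, adjusted p = 0.0445). With the YAP mutant vector HBB differed by 0.37 (limma, adjusted p = 0.0671), and between the vectors by -0.08. Of 3 endothelial markers 0 were tested, VWF and CDH5 were above background on 0 arrays, and the sums were 17.8 to 18.4, 18.3 to 18.5 and 18.1 to 18.4. Among the markers of the line itself, SCG2, a granule protein gene, fell by 0.87 (limma, adjusted p = 5.92e-06) and the prohormone convertase gene PCSK1 by 0.57 (limma, adjusted p = 0.00249) with the YAP mutant vector, while the keratin gene KRT8 rose by 0.50 (limma, adjusted p = 0.0462). With the control vector SCG2 fell by 0.43 (limma, adjusted p = 0.025), and PCSK1 differed by -0.36 (limma, adjusted p = 0.0961) and KRT8 by 0.01 (limma, adjusted p = 0.987). The summed log2 signal of these 8 markers was 82.8 to 83.1 in untreated cells, 81.7 to 82.7 with the control vector and 82 to 82.4 with the YAP mutant vector. The other tested markers of the line, GCG, CHGA, CDX2 and KRT18, were not called in any comparison. Against untreated cells, the YAP mutant arrays differed by 0.13 at GCG, 0.14 at CHGA, -0.09 at CDX2 and 0.04 at KRT18. The control vector arrays differed by 0.13, 0.21, -0.14 and -0.18 at these genes, in the same order. The part of the markers of the line and of other cell types in the histone differences was not tested.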

How the data were processed

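Total RNA of 9 NCI-H716 samples was amplified to biotin-labelled cRNA and read on an Illumina bead array. The main deposited table gives a raw intensity for each of 47230 probes, exported with BeadStudio per the submitters' processing notes (the version is not given in the sources used here). No background had been subtracted, arrays were not normalized, and detection p-values are absent. The other deposited table, on a log2 scale, was quantile normalized by the authors, and its values lay within 0.005 of log2 quantile-normalized intensities computed here. In all, 0 columns were left out and 0 pairs of arrays were identical.

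With limma 3.58.1 (R 4.3.3), background was corrected by normexp with an offset of 50, followed by quantile normalization and log2 transformation. As there was no detection p, a floor from each array's own distribution was used, on at least 3 of 9 arrays, in place of the planned filter. It kept 20326 probes and 15673 features, each named gene by its brightest probe and 3330 unnamed probes as features of their own where kept. Symbols of 4626 probes were updated through RefSeq (GRCh38.p14) synonyms; 27036 were current and 12238 kept the name of the file.

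A single linear model in limma gave group means over all 9 arrays (6 residual and 16.3 prior degrees of freedom), with Benjamini-Hochberg adjustment over all features and calls at an adjusted p under 0.05, all 2-sided. Errors beside differences are SE. The script was tested on simulated data. The rule for named genes took the called ones, every tested variant gene, the 3 largest differences between the vectors in each class, called list members, and NPAT, SLBP, H1FX and CENPA; HIST1H2BE, HIST1H4H, HIST1H3H, HIST1H2BK, HIST1H2BD, HIST1H4C, HIST2H2AA3, HIST1H4J, HIST1H2AI and HIST1H2BF were chosen after their values were seen. The members and lists were chosen with earlier results of these data known, and some listed genes are not reported here. The alternatives varied background correction, normalization, filter, probe choice, prior, block, brightness and the arrays used.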

Additional observations from a re-analysis of the deposited data

How the results depend on the processing

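Under 23 alternatives, between the YAP mutant vector and the control vector 0 histone genes of either class were called in every one, and 0 variant genes were called in any comparison. With the YAP mutant vector against untreated cells the 4 called replication-dependent genes became 2, HIST1H2BG and HIST1H2BC, with a normexp offset of 16, arrays scaled to a common median, no filter on dim probes, array brightness as a covariate, or without both arrays of lowest brightness (control vector 3 and YAP mutant 1). They became 5, with HIST1H2BE added, with no background correction, in the deposited normalized table, with a filter on all 9 arrays, or with the mean over a gene's probes. Leaving out 1 array at a time gave 2 to 4. HIST1H2BG kept adjusted p between 0.000461 and 0.0226, and HIST1H2BC between 0.00404 and 0.0484.

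With the control vector against untreated cells the 1 call became 4 with no background correction or in the deposited normalized table, 3 with a filter on all 9 arrays, 2 with a robust prior that follows intensity, 2 with unnamed probes left out (an alternative added after seeing the data), and 0 with arrays scaled to a common median. Leaving out 1 array gave 0 to 1. Deviations of same-numbered arrays from different groups correlated between -0.196 and 0.164, and whether replicate numbers pair the arrays was not tested. With the replicate block 2 genes were called there, HIST1H2BG and HIST1H2BJ, and 4 with the YAP mutant vector. Of 960 values of named genes under the alternatives, 0 were called differences that changed sign. The median of the replication-dependent genes ran from -0.16 to -0.06 with the YAP mutant vector and from -0.11 to -0.04 with the control vector. The H2B median ran from -0.23 to -0.09 and from -0.11 to -0.04, and the variant median from -0.19 to -0.03 and from -0.15 to 0.00, in the same order. The cause of these changes was not tested.

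Over all features, the calls with the YAP mutant vector against untreated cells (806) were 183 with median scaling, 505 with offset 16, 516 with brightness, and 468 to 863 leaving out 1 array. Those with the control vector (340) were 47 (28 of them higher, against 237 of 340), 130, 188 and 157 to 367, and 158 without both dim arrays. Those between the vectors (53) were 10 with median scaling, 22 with offset 16, 29 without both dim arrays and 25 to 57 leaving out 1 array. Dim probes near background limit 10 tested histone genes.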
